A study of Mus musculus with 12 samples.

Results

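Acmsd encodes aminocarboxymuconate semialdehyde decarboxylase, an enzyme of tryptophan breakdown that decides how much of this route ends in nicotinamide adenine dinucleotide (NAD). It was followed here in the mouse kidney together with 9 other enzymes of the kynurenine route and of NAD synthesis, namely Afmid, Kmo, Kynu, Haao, Qprt, Naprt, Nampt, Nadsyn1 and Nmnat1. The 10 genes were taken by symbol from a fixed list of enzymes, and all 10 were found among the 57180 Ensembl genes counted in each library and passed the filter on low counts. Acmsd was chosen by its measured difference between cannabidiol (CBD) and control mice, since the study named it as altered at these doses, so that difference is a description and carries no test. The other 9 genes were chosen for their place in the pathway.

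In the kynurenine route, tryptophan is opened and turned by a chain of enzymes into aminocarboxymuconate semialdehyde, a short-lived intermediate. Left alone, this intermediate closes into quinolinate, which Qprt turns into an NAD precursor, whereas ACMSD removes a carboxyl group from it and sends the carbon towards glutarate and full oxidation. The kidney proximal tubule and the liver are the known main sites of Acmsd, and the kidney can also make NAD from nicotinate through Naprt and recover it from nicotinamide through Nampt.

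Poly(A) RNA was sequenced from the kidneys of 12 male C57BL/6J mice, about 2 months old at the start, with 4 mice in each of 3 groups and 1 library per mouse. All mice were injected intraperitoneally once a day for 28 days. The daily dose of CBD per kg of body weight was 10 mg in one treated group and 20 mg in the other. The control group (0 mg) received the vehicle alone, which was saline with Tween detergent, the carrier of CBD in both treated groups. RNA came from small scrapes of kidney, the part of the organ sampled and the hour of killing were not given in the sources used here, and all mice were of the same strain and sex.

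The 12 libraries held 15417867 to 23532088 counts on genes. Mitochondrial genes took 3.53 to 23.4% of these counts, and 4 libraries (control mouse 2, mice 1 and 3 of the 10 mg group and mouse 3 of the 20 mg group) were under 10%, which touches several genes described further on. The tissue label was checked on 12 markers of the proximal tubule, the main epithelium of the renal cortex, all of which were measured. Their summed level was 27594 to 30172 CPM (counts on a gene as a share of the library total, scaled by TMM normalization) in the control group, 26959 to 32478 in the 10 mg group and 25286 to 34227 in the 20 mg group. Much of this sum was Kap, an abundant gene of male proximal tubules (18538 CPM on average in the control group), so single markers are also given beside Acmsd. At 10 mg, 0 of the 12 markers passed the test, and at 20 mg 1 did (Slc5a2, the glucose carrier of the early proximal tubule, log2 fold change -0.61, adjusted p = 0.0820, edgeR). DESeq2 called 0 and 2, the second being Lrp2, an uptake receptor of the same cells. Of all 17163 genes tested, edgeR called 5 at 10 mg and 52 at 20 mg, and DESeq2 called 40 and 182.

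Acmsd (ENSMUSG00000026348) lies on the forward strand of chromosome 1 in GRCm39, at chr1:127657143-127695715. The primers with which the study measured its mRNA by qPCR are shown because they mark which stretch of the transcript was assayed outside the sequencing. Both were found in 4 of 4 Acmsd transcripts of GENCODE vM39. In transcript Acmsd-201 the forward primer falls in exon 9 (chr1:127693667-127693686) and the reverse primer, which is complementary to the mRNA, in exon 10 (chr1:127694106-127694126). The spliced product between and including them is 156 bases long. Both are given 5′ to 3′.
Acmsd forward primer: gcctgggaagctgatagagt
Acmsd reverse primer: gtgacgtagcttctcgaaagt

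Acmsd mRNA was lower in every CBD-treated mouse than in every control mouse. Its level was 70.8, 73.0, 83.1 and 69.1 CPM in control mice 1 to 4. In the 10 mg group it was 39.6, 50.01, 43.8 and 41.7 CPM, and in the 20 mg group 50.4, 35.0, 32.3 and 40.2 CPM. The lowest control mouse (69.1 CPM) thus stood well above the highest treated mouse (50.4 CPM), and the treated groups overlapped each other. The means were 74.0 ± 6.30, 43.8 ± 4.51 and 39.5 ± 8.01 CPM (SD, n = 4 each). The log2 fold change against the control group was -0.76 (SE 0.14) at 10 mg and -0.91 (SE 0.14) at 20 mg, given as a description of the contrast for which the gene was chosen. These values rest on 1270 to 1685 counts per library in the control group, 711 to 969 in the 10 mg group and 538 to 861 in the 20 mg group. In whole tissue, fewer cells that express Acmsd and less Acmsd mRNA per cell cannot be told apart.

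The direct comparison of the doses was not used to choose Acmsd. Its log2 fold change between 20 and 10 mg was -0.15 (SE 0.14), with an adjusted p of 0.894 in edgeR's quasi-likelihood test and an exact two-sided permutation p of 0.343. The difference between doses was therefore within the spread between mice, which does not show that the doses acted alike.

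Markers of the proximal tubule, the known renal site of Acmsd, were set beside it. Their log2 fold changes were below 0 in 7 of 12 at 10 mg and 8 of 12 at 20 mg, with medians of -0.09 and -0.18. At 20 mg the 4 lowest values were those of the uptake receptor Lrp2, its partner Cubn, Miox and Slc5a2. They were -0.76 (adjusted p = 0.173, edgeR), -0.66, -0.37 and -0.61, beside -0.91 for Acmsd. At 10 mg the values of these 4 markers were -0.26, -0.45, -0.27 and -0.17, beside -0.76 for Acmsd. The markers above 0 at 20 mg were Slc7a13 (0.33), Cyp7b1 (0.20), Kap (0.11) and Slc22a7 (0.10). Their values at 10 mg were 0.83, 0.31, 0.09 and 0.39. The part of these differences in the values of Acmsd was not tested.

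Markers of other cells were compared as well. The summed level of 5 adipocyte markers was 3.98 to 48.3 CPM in the control group, 0.858 to 16.0 in the 10 mg group and 0.420 to 8.07 in the 20 mg group. Of the 4 of these that could be tested, 0 passed at either dose in edgeR, 3 had an unadjusted p under 0.05 at 10 mg and 4 at 20 mg, and Adipoq, their defining hormone gene, was at 0 in at least 1 mouse of the 20 mg group. The part of this difference in the values of Acmsd was not tested. At 20 mg DESeq2 called 1 of the adipocyte markers lower (Cidec, a lipid droplet gene), beside 182 of all 17163 genes called in either direction. At both doses, edgeR called 0 markers of podocytes, endothelium, immune cells, the loop and distal nephron, injured proximal tubule, adrenal cortex or liver, and DESeq2 called 1, the distal tubule gene Calb1 at 20 mg.

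**Figure D1:**
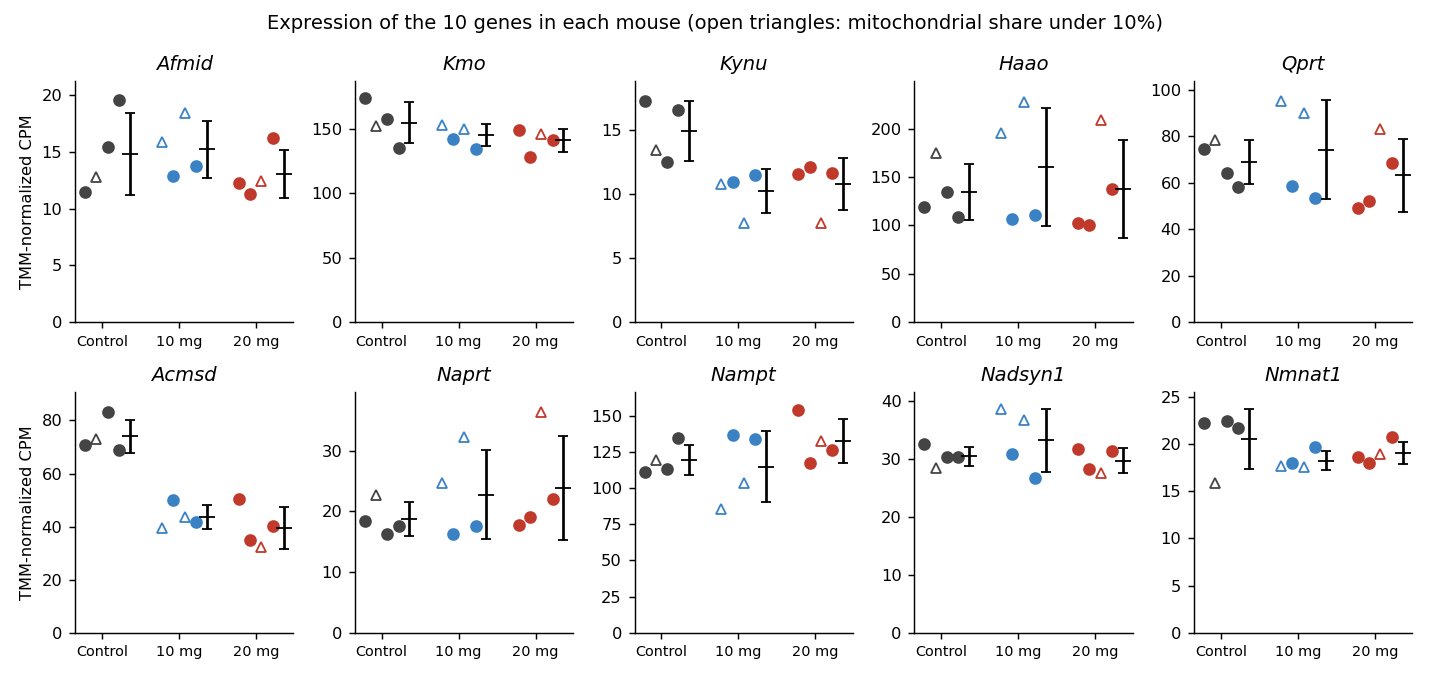
TMM-normalized CPM (vertical axes from 0) of each of the 10 genes in the 4 mice of the control, 10 mg and 20 mg groups, with the mean ± SD beside the points. Open triangles are the 4 libraries with under 10% mitochondrial counts. Acmsd and Kynu are the panels in which all 8 treated mice lie below all 4 control mice, and Haao, Qprt and Naprt those in which the triangles lie highest.

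Among the 9 other enzymes, edgeR called 0 at 10 mg (0.0291% of all 17163 genes tested were called) and 0 at 20 mg (0.303% of all genes), at an adjusted p under 0.1, the threshold of the study. DESeq2 and limma-voom also called 0 of the 9 at each dose. An unadjusted p under 0.05 was reached by 1 of the 9 at each dose, and by 5.67% of all genes at 10 mg and 8.45% at 20 mg. The median log2 fold change of the 9 genes was 0.04 at 10 mg and -0.11 at 20 mg, beside 0.012 and 0.015 over all genes. At 10 mg 4 of the 9 values were below 0, and at 20 mg 6 were. Between the doses, 0 of the 10 genes were called (0.0% of all genes) and 0 had an unadjusted p under 0.05 (6.31% of all genes), and limma-voom and DESeq2 likewise called 0 of the 10. The 2 dose groups overlapped in all 10 genes, whereas 3.1% of all genes had no overlap between them (1.4% with the 20 mg group lower). The adjusted p of the 9 genes ranged from 0.796 to 0.982 at 10 mg and from 0.475 to 0.991 at 20 mg.

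**Figure D2:**
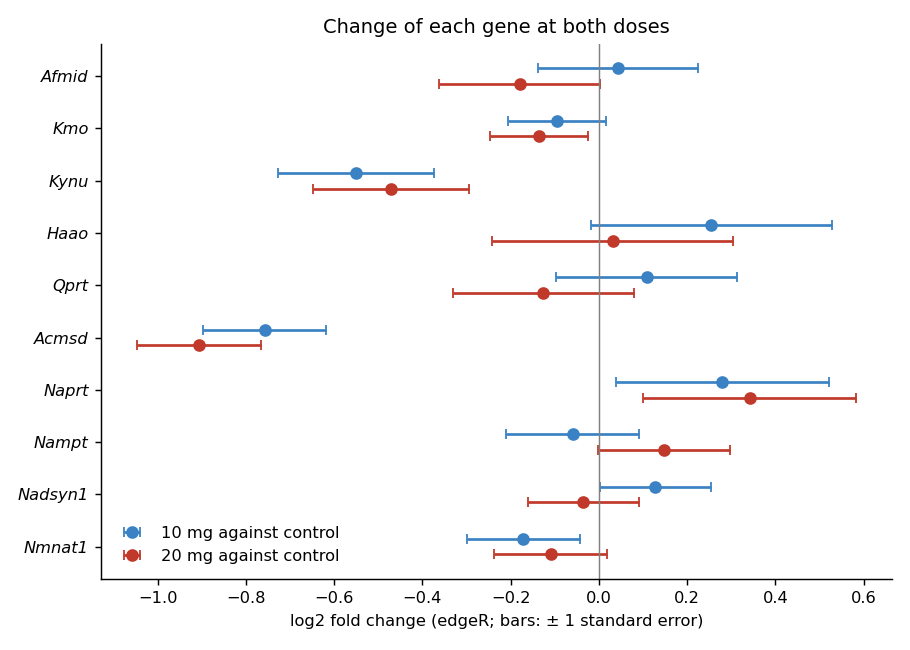
Log2 fold change against the control group (horizontal axis) of each gene at 10 mg (blue) and 20 mg (red), with bars of 1 standard error from edgeR. Acmsd (-0.76 and -0.91) and Kynu (-0.55 and -0.47) lie furthest below 0, and Naprt (0.28 and 0.34) lies furthest above it.

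Kynu (ENSMUSG00000026866, chr2:43445309-43572734 in GRCm39) encodes kynureninase, the vitamin B6-dependent enzyme that makes hydroxyanthranilate, the substrate of Haao. Its level was 17.3, 13.5, 12.5 and 16.6 CPM in the control mice, 10.8, 10.95, 7.72 and 11.5 in the 10 mg group and 11.6, 12.2, 7.80 and 11.7 in the 20 mg group. All 8 treated mice were below all 4 control mice, although the gap between the lowest control mouse (12.5 CPM) and the highest treated mouse (12.2 CPM) was small. It was the only one of the 9 genes whose treated and control groups did not overlap. At 10 mg groups without overlap were found for 3.19% of all genes (1.64% with the treated mice lower) and at 20 mg for 5.3% (2.63% lower), and 0.443% of all genes were lower in all 8 treated mice than in all 4 control mice.

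The mean of Kynu was 15.0 ± 2.34 CPM in the control group, 10.2 ± 1.71 at 10 mg and 10.8 ± 2.02 at 20 mg (SD, n = 4 each), from 130 to 412 counts per library. Its log2 fold change was -0.55 (SE 0.18) at 10 mg, with an adjusted p of 0.796 in edgeR. At 20 mg it was -0.47 (SE 0.18), with an adjusted p of 0.475 in edgeR. For both doses together it was -0.51 (SE 0.15, edgeR adjusted p = 0.441), and in this contrast edgeR, DESeq2 and limma-voom called 0 of the 9 genes (0.14% of all genes with edgeR) and 1 of the 9 had an unadjusted p under 0.05 (7.04% of all genes). The exact permutation p was 0.0286 at each dose, the smallest that 4 mice against 4 allow, and restates that the groups did not overlap. In a family of 18 such tests a p of this size cannot pass a correction. For both doses together the exact permutation p of Kynu was 0.00404. It likewise restates that the groups did not overlap, and it was not corrected over the 9 genes. In the edgeR fit above, the difference did not pass the correction over all genes. Between the doses the log2 fold change of Kynu was 0.08 (SE 0.18, edgeR adjusted p = 0.964).

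Afmid (ENSMUSG00000017718, chr11:117716712-117730734) encodes the formamidase that yields kynurenine. It stood at 11.5, 12.8, 15.5 and 19.6 CPM in the control group, 15.9, 12.9, 18.4 and 13.7 at 10 mg and 12.3, 11.3, 12.5 and 16.2 at 20 mg. The 3 groups overlapped, and the control mice alone covered nearly the whole range. The log2 fold change was 0.04 (SE 0.18) at 10 mg and -0.18 (SE 0.18) at 20 mg.

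Kmo (ENSMUSG00000039783, chr1:175447947-175489683) encodes kynurenine monooxygenase of the outer mitochondrial membrane, which commits kynurenine to the NAD route. Its values were 174, 152, 158 and 136 CPM in the control mice, 154, 142, 150 and 134 at 10 mg and 149, 128, 146 and 141 at 20 mg. The groups overlapped, with log2 fold changes of -0.10 (SE 0.11, edgeR adjusted p = 0.936) and -0.14 (SE 0.11, edgeR adjusted p = 0.809). Among the 10 genes it gave the smallest standard error at either dose.

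Since Kmo lies upstream of the branch point and Acmsd at it, the ratio of their CPM was taken within each mouse. The ratio of Acmsd to Kmo was 0.480 ± 0.053 in the control group (lowest mouse 0.406), 0.303 ± 0.039 at 10 mg (highest 0.351) and 0.279 ± 0.048 at 20 mg (highest 0.338). Control and treated mice did not overlap in this ratio. The ratio of Acmsd to Qprt, the enzymes on the 2 sides of the branch, was 1.09 ± 0.18, 0.635 ± 0.216 and 0.670 ± 0.266. Here mouse 1 of the 20 mg group (1.03) overlapped the control mice, whose lowest ratio was 0.931. Both ratios carry the difference in Acmsd for which the gene was chosen and were not tested.

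Haao (ENSMUSG00000000673, chr17:84138583-84155392) encodes the dioxygenase that makes the branch-point intermediate. Its level was 119, 175, 135 and 109 CPM in the control mice, 196, 106, 228 and 111 at 10 mg and 103, 100, 209 and 138 at 20 mg. Within the 10 mg group mice 1 and 3 were about double mice 2 and 4, so the groups overlapped and the means of 134 ± 29.0, 160 ± 61.2 and 137 ± 50.7 CPM (SD, n = 4) carried wide errors. The log2 fold changes were 0.26 (SE 0.27) and 0.03 (SE 0.27). The value at 10 mg was 0.035 without mouse 3 of that group, 0.41 without control mouse 2 and 0.013 with the mitochondrial share as a covariate.

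Qprt (ENSMUSG00000030674, chr7:126704596-126721398), whose product turns quinolinate into nicotinate mononucleotide, showed the same mice on top. Its values were 74.6, 78.4, 64.3 and 58.2 CPM in the control group, 95.0, 58.4, 89.8 and 53.5 at 10 mg and 49.1, 51.9, 83.1 and 68.3 at 20 mg. The log2 fold changes were 0.11 (SE 0.20) at 10 mg and -0.13 (SE 0.20) at 20 mg, and the groups overlapped.

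Naprt (ENSMUSG00000022574, chr15:75762805-75766413) encodes the entry enzyme for nicotinate. It was measured at 18.5, 22.8, 16.3 and 17.6 CPM in the control mice, 24.8, 16.3, 32.3 and 17.7 at 10 mg and 17.7, 19.1, 36.4 and 22.02 at 20 mg. Mouse 3 was the highest of its group at each dose, and the groups overlapped. The log2 fold change was 0.28 (SE 0.24) at 10 mg and 0.34 (SE 0.24, edgeR adjusted p = 0.769) at 20 mg. Without mouse 3 of the 10 mg group the first value was 0.06, and without mouse 3 of the 20 mg group the second was 0.06.

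The high values of Haao, Qprt and Naprt came from the same 4 libraries, those with under 10% mitochondrial counts. These libraries held the 4 highest levels of Haao (175 to 228 CPM, against 100 to 138 in the other 8), of Qprt (78.4 to 95.0 against 49.1 to 74.6) and of Naprt (22.8 to 36.4 against 16.3 to 22.02). Of all genes, 6.29% were higher in all 4 of these libraries than in all of the other 8, and 6.65% were lower. The organic anion carrier Slc22a7, a marker of the late proximal tubule, was also higher in all 4 (218 to 332 against 75.8 to 190 CPM), and the lactate carrier Slc5a12, a marker of its earlier part, was lower in all 4 (65.5 to 130 against 153 to 215 CPM). The other 4 segment or tubule markers examined overlapped between these libraries and the rest. The late markers Slc7a13 and Cyp7b1 had 3 and 0 of the 4 libraries among their 4 highest, and the markers Slc5a2 and Lrp2 had 2 and 1. The part of the mitochondrial share or of these markers in the levels of Haao, Qprt and Naprt was not tested.

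Acmsd did not follow this division, with 32.3 to 73.0 CPM in the 4 libraries and 35.0 to 83.1 CPM in the other 8. When the 4 libraries were left out, its log2 fold change was -0.70 at 10 mg and -0.82 at 20 mg. Kynu overlapped as well (7.72 to 13.5 against 10.95 to 17.3 CPM), and without these libraries its log2 fold changes were -0.47 and -0.39. With the mitochondrial share as a covariate in edgeR, 2 of the 9 genes passed at 20 mg. These were Kynu (log2 fold change -0.57, adjusted p = 0.0506) and Naprt (0.49, adjusted p = 0.0356), in a fit that called 1386 of the 17163 genes against 52 without the covariate. Over all alternatives the adjusted p at 20 mg ranged from 0.0506 to 0.812 for Kynu and from 0.0356 to 0.983 for Naprt.

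**Figure D3:**
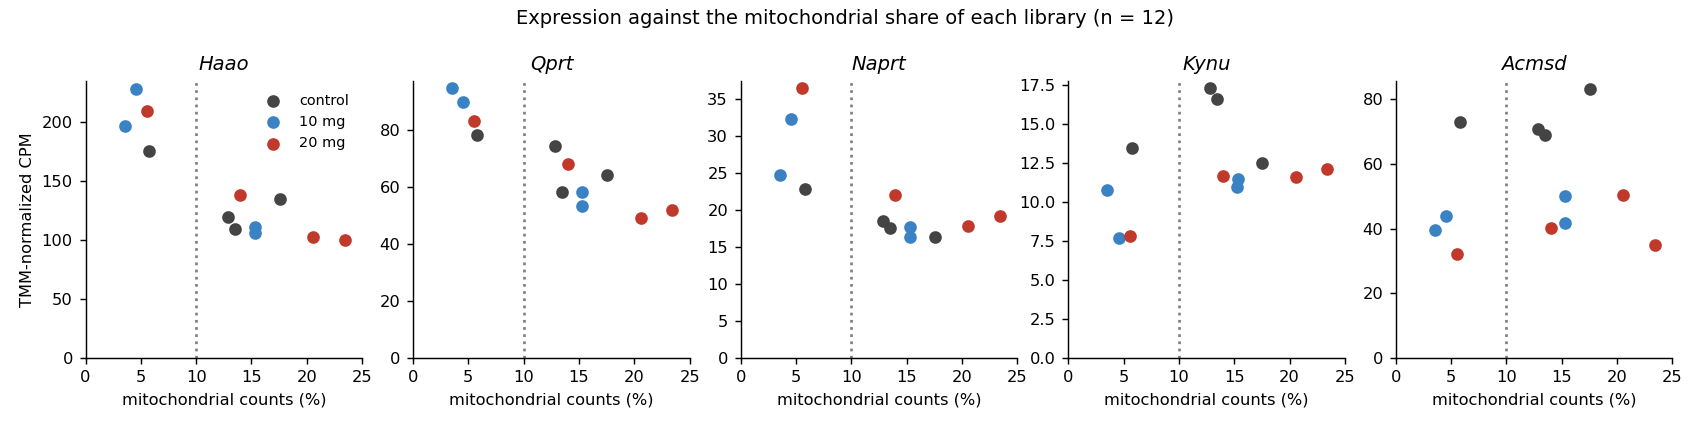
TMM-normalized CPM (vertical axes from 0) of Haao, Qprt, Naprt, Kynu and Acmsd in each of the 12 libraries against the percentage of counts on mitochondrial genes, with control mice in grey, 10 mg in blue and 20 mg in red. Left of the dotted line at 10% lie the 4 libraries with the highest Haao, Qprt and Naprt, whereas Acmsd separates by treatment on both sides of the line.

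Nampt (ENSMUSG00000020572, chr12:32869544-32903368) encodes the rate-limiting enzyme of NAD recovery from nicotinamide and is a known target of the circadian clock. Its values were 111, 119, 113 and 134 CPM in the control mice, 85.6, 136, 103 and 134 at 10 mg and 154, 117, 132 and 126 at 20 mg. The groups overlapped, with log2 fold changes of -0.06 (SE 0.15) and 0.15 (SE 0.15, edgeR adjusted p = 0.857). Several of 11 genes of clock output were already known to change in these samples. Of the 11, edgeR called 2 higher at 10 mg and 6 at 20 mg (0.0291% and 0.303% of all genes were called). DESeq2 called 3 and 8 of them, beside 40 and 182 of all 17163 genes. The median log2 fold changes of the 11 genes were 0.56 and 0.80, beside 0.012 and 0.015 over all genes.

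Nmnat1 (ENSMUSG00000028992, chr4:149552026-149569680) encodes the nuclear enzyme that joins the mononucleotide to the adenylate part of NAD. Its values were 22.2, 15.8, 22.4 and 21.7 CPM in the control mice, 17.7, 18.0, 17.6 and 19.7 at 10 mg and 18.6, 18.0, 18.9 and 20.7 at 20 mg. All 8 treated mice were below 3 of the control mice and above control mouse 2. The log2 fold change was -0.17 (SE 0.13) at 10 mg and -0.11 (SE 0.13) at 20 mg, and neither passed the test.

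Nadsyn1 (ENSMUSG00000031090, chr7:143349314-143376610), the NAD synthetase that ends the routes from tryptophan and nicotinate, was the steadiest of the 10 genes among the control mice, at 32.6, 28.5, 30.3 and 30.3 CPM. It stood at 38.5, 30.9, 36.7 and 26.7 CPM at 10 mg and at 31.7, 28.2, 27.6 and 31.3 CPM at 20 mg. The groups overlapped, with log2 fold changes of 0.13 (SE 0.13) and -0.04 (SE 0.13).

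Levels were compared between genes per kilobase of the canonical transcript in the control mice. On this scale the order of mean levels was Haao (89.2 CPM per kilobase), Kmo (56.9), Acmsd (27.2), Nampt (25.7), Qprt (18.4), Nadsyn1 (11.4), Naprt (9.89), Nmnat1 (9.12), Afmid (6.27) and Kynu (5.47). The ranges of the 4 mice overlapped between Acmsd and Nampt and between each pair of neighbours from Nadsyn1 down to Kynu, and did not overlap between the other neighbours. With the length of all annotated exons instead, Kmo (31.7) came before Haao (28.7) and Nadsyn1 moved to rank 8, while Acmsd kept rank 3 and Kynu rank 10.

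Some exons of these genes are shared with other annotated genes, and whether the counting used strand was not given in the sources used here. Acmsd shares 137 exon bases (4.83% of its exons) with the antisense RNA Gm35993 and 94 bases (3.31%) with 2900009J06Rik on the opposite strand. Gm35993 was measured at 4.13, 4.16 and 4.57 CPM on average in the control, 10 mg and 20 mg groups, with log2 fold changes of 0.01 and 0.15. Kmo shares 188 bases with Fh1, Haao 504 with Gm56902, Afmid 121 with Tk1, and Nmnat1 43 with Tmem274 and 8 with Lzic, all on the opposite strand. On the same strand, Naprt shares 360 bases (14.4%) with Eef1d, and Afmid 1566 bases (43.8%) with the readthrough gene Gm20708, which was at 0 counts in every library. Eef1d was measured at 151, 177 and 166 CPM on average in the control, 10 mg and 20 mg groups, with log2 fold changes of 0.23 and 0.13. The levels of Afmid and Naprt are therefore uncertain, since reads in the shared bases could not be assigned to one gene.

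The rest of the pathway was described by 5 lists with 40 genes, of which 35 passed the filter on low counts. Of these 35, edgeR, DESeq2 and limma-voom each called 0 at 10 mg and 0 at 20 mg in either direction, and the unadjusted p was under 0.05 for 1 gene at 10 mg and 2 at 20 mg, beside 5.67% and 8.45% of all genes. Their median log2 fold change was 0.02 and -0.03, beside 0.012 and 0.015 over all genes. Fold changes ranged from -0.36 to 0.63 at 10 mg and from -0.34 to 0.39 at 20 mg on the log2 scale.

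Of the enzymes that open the tryptophan ring, Tdo2 (0.379 CPM on average in the control group) and Ido1 (0.141 CPM) were too low to test, and Ido2 stood at 10.3 ± 1.76, 9.28 ± 0.538 and 9.22 ± 1.08 CPM. The side branch to kynurenate was represented by Kyat1, Kyat3, Aadat and Got2, of which Aadat stood at 203 ± 52.7, 189 ± 67.5 and 196 ± 45.8 CPM. All 5 tested genes of this list overlapped between groups in their ranges, with log2 fold changes from -0.15 to 0.11 at 10 mg and from -0.16 to 0.18 at 20 mg.

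Below Acmsd, the aldehyde dehydrogenase Aldh8a1, which oxidizes the product of ACMSD, was measured at 468 ± 77.8, 402 ± 27.8 and 391 ± 59.6 CPM in the control, 10 mg and 20 mg groups. Its log2 fold change was -0.22 (edgeR adjusted p = 0.893) and -0.26 (edgeR adjusted p = 0.704), and the ranges of 357 to 528 CPM in the control group and 302 to 425 CPM at 20 mg overlapped. The later enzymes Dhtkd1 (44.0, 42.9 and 43.0 CPM) and Gcdh (365, 371 and 368 CPM) had log2 fold changes between -0.04 and 0.02 at both doses. The genes downstream on the oxidative side thus did not differ beyond the spread between mice.

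In the other NAD and NADP synthesis list, 8 of 10 genes were tested and 0 passed. Nmrk1, the kinase that takes in nicotinamide riboside, stood at 43.1, 44.0 and 46.4 CPM, and Nadk, which makes NADP, at 100 ± 7.76, 105 ± 12.0 and 92.7 ± 5.22 CPM. Nnt, the mitochondrial transhydrogenase, was measured at 1.76, 2.27 and 2.10 CPM, and C57BL/6J mice are known to carry a deletion in this gene.

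Among 12 enzymes that consume NAD, 11 were tested and 0 passed. Parp1, the DNA-damage polymerase, was 53.4 ± 1.503 CPM in the control group, 53.6 ± 6.44 at 10 mg and 44.1 ± 3.41 at 20 mg. All mice of the 20 mg group (39.5 to 46.9 CPM) were below all control mice (51.2 to 54.6 CPM), and the log2 fold change of -0.27 had an adjusted p of 0.520 in edgeR. At 20 mg 5.3% of all genes had no overlap with the control group (2.63% with the treated mice lower). Sirt1 stood at 19.2, 21.2 and 18.5 CPM.

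Of 8 genes for uptake of tryptophan and nicotinate, 0 passed. The aromatic amino acid carrier Slc16a10 was 34.6 ± 1.46 CPM in the control group, 26.9 ± 5.87 at 10 mg and 27.2 ± 4.49 at 20 mg, with log2 fold changes of -0.36 (edgeR adjusted p = 0.830) and -0.34 (edgeR adjusted p = 0.570). Its control range of 33.2 to 36.5 CPM overlapped that at 20 mg (23.5 to 33.7 CPM) and lay above that at 10 mg (21.5 to 32.3 CPM). At 10 mg 3.19% of all genes had no overlap with the control group (1.64% with the treated mice lower). Slc6a19, the main tubular carrier of neutral amino acids, stood at 288, 286 and 315 CPM. Parp1 and Slc16a10 were singled out after their values were seen.

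Of 7 regulators linked to Acmsd or Nampt, edgeR called 2 lower at 10 mg and 3 at 20 mg, where it called 0.0291% and 0.303% of all genes. DESeq2 called 3 at each dose, which added Bmal1 at 10 mg. Over all 17163 genes tested, DESeq2 called 40 at 10 mg and 182 at 20 mg. Ppard, a fatty acid-sensing nuclear receptor, was 37.2 ± 2.86 CPM in the control group, 18.8 ± 0.509 at 10 mg and 18.2 ± 2.91 at 20 mg (adjusted p = 0.00899 and 0.00346, edgeR). Npas2, a partner of Bmal1 in the clock, was 24.4 ± 4.00, 9.13 ± 1.83 and 8.97 ± 3.25 CPM (adjusted p = 0.0792 and 0.0258, edgeR). Bmal1 was 21.96 ± 4.03, 10.8 ± 1.18 and 9.53 ± 2.87 CPM (adjusted p = 0.229 and 0.0340, edgeR).

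These 3 genes were already known to be lower in these samples, so their calls are not independent support for any link with Acmsd. Hnf4a, a known activator of Acmsd in hepatocytes, stood at 651 ± 107, 624 ± 31.8 and 604 ± 104 CPM, with log2 fold changes of -0.06 (edgeR adjusted p = 0.974) and -0.11 (edgeR adjusted p = 0.901). Ppara was 50.9, 55.7 and 50.8 CPM, and Clock 71.0, 58.9 and 66.6 CPM. None of Hnf4a, Ppara, Ppargc1a and Clock passed the test at either dose.

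**Figure D4:**
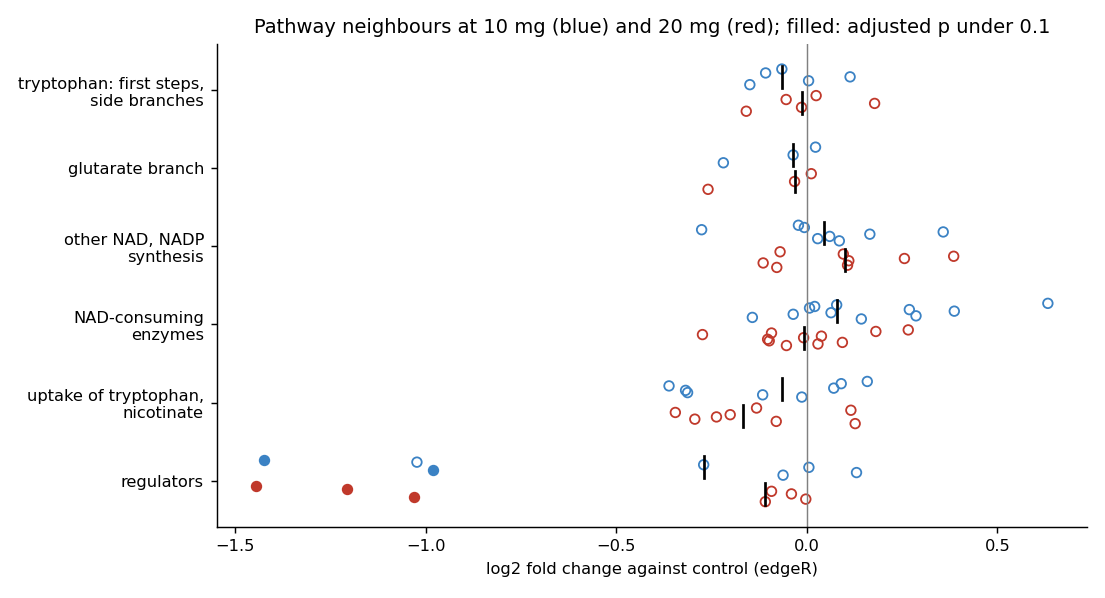
Log2 fold change against the control group (horizontal axis) of each tested gene of the 5 pathway lists and of the regulators, at 10 mg (blue) and 20 mg (red), with black bars for the median of a list and filled points for an adjusted p under 0.1. The 35 pathway genes are all open points between -0.36 and 0.63, and the filled points are Ppard and Npas2 at both doses and Bmal1 at 20 mg.

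The genes whose profile was most like that of Acmsd were found by the distance (root mean square over the 12 libraries) between standardized log2 CPM values. The nearest were Ppm1h, a protein phosphatase (distance 0.344), Ctif, a translation initiation factor (0.376), Ipmk, an inositol phosphate kinase (0.402), the predicted gene Gm12258 (0.425) and Cyp24a1, the enzyme that inactivates vitamin D hormone (0.436). In each of them, as in Acmsd, all 8 treated mice were below all 4 control mice, which held for 0.443% of all genes. Since they were picked for likeness to Acmsd, this is largely given by the choice. The distances are a description without a test.

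Ppm1h was 80.5 ± 2.79, 55.2 ± 4.42 and 54.7 ± 3.49 CPM in the control, 10 mg and 20 mg groups. Cyp24a1 had the largest proportional difference of the 5, at 170 ± 36.3, 75.3 ± 35.0 and 59.9 ± 24.5 CPM. Of the 9 other enzymes the nearest to Acmsd was Kynu, at rank 372 of 17162 genes (distance 0.793), followed by Kmo at rank 1541, and Naprt was the furthest at rank 15640.

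**Figure D5:**
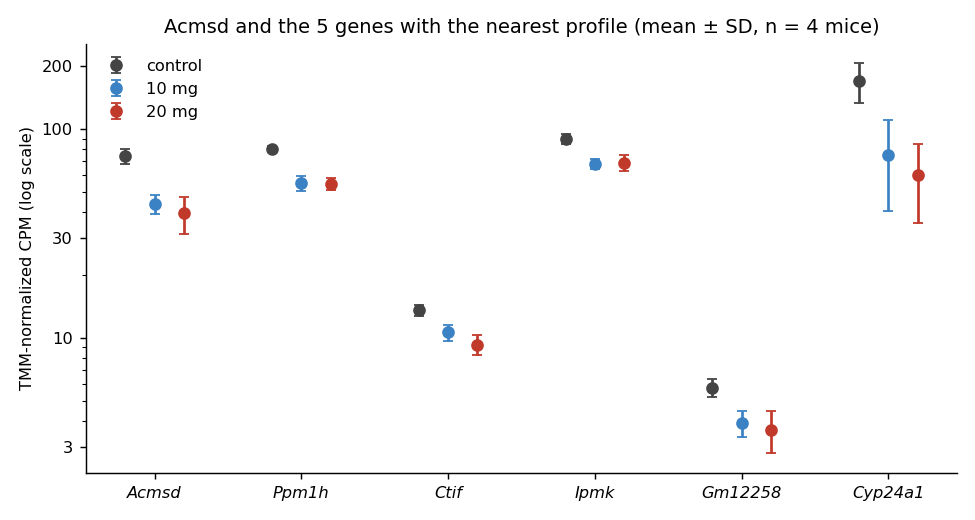
TMM-normalized CPM (log scale) of Acmsd and of the 5 genes with the nearest profile over the 12 libraries, as mean ± SD of 4 mice in the control group (grey), at 10 mg (blue) and at 20 mg (red). In each of the 6 genes the control mean lies above both treated means, from 5.77 CPM in Gm12258 to 170 CPM in Cyp24a1.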

How the data were processed

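The authors filtered the reads, mapped them with STAR 2.7.5c to GRCm39 and counted them per gene with HTSeq 1.99.2 (FastQC 0.11.9 is also named in the submitters' processing notes), and the deposited count of each gene in each library is a whole number that was not normalized. The annotation release, the strand setting and any use of molecular identifiers in counting were not given in the sources used here. The summary lines of the counter were left out. Of uniquely mapped reads, 12.1 to 19.9% were on no feature and 4.72 to 5.29% were ambiguous. Identifiers were matched to GENCODE vM39, which held 99.0% of them, and no 2 libraries held identical counts.

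Genes were kept with filterByExpr (17163 genes), normalized by TMM and fitted with edgeR 4.0.16 (quasi-likelihood, R 4.3.3) over all 12 libraries with 1 mean per group. P-values were adjusted by Benjamini-Hochberg over all genes and called under 0.1. CPM per mouse are TMM-normalized, and log2 CPM for permutation tests and profiles used a prior count of 2. Single enzymes were also compared by exact two-sided permutation tests (70 arrangements for 4 mice against 4, and 495 for both doses together against the control group). In edgeR a p-value sets a difference between groups against the estimated spread between mice. The permutation p counts rearrangements of the mice. Alternatives were RLE and upper-quartile normalization, DESeq2 1.42.0, limma-voom (limma 3.58.1), other filters and thresholds, a replicate block, the mitochondrial share as a covariate, mitochondrial genes removed, only the groups compared and each library left out. The fit was tested on simulated counts.

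The enzymes and lists were chosen with earlier results of these data known. Genes named are the 10 enzymes, genes of the pathway and regulator lists that were called, the 5 nearest to Acmsd in profile, genes overlapping an enzyme, and up to 4 examples per marker list. Other pathway genes named (Ido2, Aadat, Aldh8a1, Dhtkd1, Gcdh, Nmrk1, Nadk, Nnt, Parp1, Sirt1, Slc16a10, Slc6a19, the untested Tdo2 and Ido1, and the regulators, carriers and further tubule, adipocyte and distal nephron markers that were not called by edgeR) were added after values were seen. Some regulators and upstream sequences are not reported here.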

Additional observations from a re-analysis of the deposited data

Results flagged for a closer look

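In each group of 4 mice, the highest and the lowest value of each of the 10 genes were set against the other 3 by Dixon's ratio (above 0.829), in 30 groups, of which chance picks out about 1 in 20. There were 3 such values, all of them the lowest of their group. Kynu was 7.72 CPM in mouse 3 of the 10 mg group, where the others were at 10.8 to 11.5. Kynu was also 7.80 CPM in mouse 3 of the 20 mg group, where the others were at 11.6 to 12.2. Nmnat1 was 15.8 CPM in control mouse 2, where the others were at 21.7 to 22.4. All 3 came from libraries with under 10% mitochondrial counts, and the part of that share in these values was not tested.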

How the results depend on the processing

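Acmsd kept its direction under each alternative that was run, with log2 fold changes from -0.78 to -0.70 at 10 mg and from -0.96 to -0.82 at 20 mg, and from -0.83 to -0.70 and -1.05 to -0.82 when each library was left out in turn. Kynu ranged from -0.58 to -0.47 and from -0.57 to -0.39, and with each library left out from -0.63 to -0.44 and from -0.55 to -0.34. The count of the 9 other enzymes called was 0 at 10 mg under each alternative and 0 between doses, and leaving out any 1 library gave 0 to 0 in each comparison. With the mitochondrial share as a covariate it was 2 at 20 mg (Kynu -0.57, Naprt 0.49) and 1 for both doses together (Kynu), and it was 1 for both doses together (Kynu) with no filter on low counts, where 40012 genes were tested. The cause was not tested. Values that did not pass the test changed sign as follows. With the covariate Qprt was -0.060 at 10 mg and 0.0082 at 20 mg. Haao at 20 mg was -0.012 with limma-voom and -0.027 with the replicate block. Without the 4 libraries under 10% mitochondrial counts, an alternative chosen after seeing the data, the values at 10 mg were -0.16 for Haao, -0.24 for Qprt, -0.22 for Afmid, -0.12 for Nadsyn1, -0.043 for Naprt and 0.17 for Nampt, and Haao at 20 mg was -0.089. With single libraries left out, Qprt at 10 mg ranged from -0.036 to 0.23, Afmid from -0.063 to 0.20, Nampt from -0.16 to 0.056, and at 20 mg Haao from -0.24 to 0.18 and Nadsyn1 from -0.070 to 0.0031. The labels do not say whether replicate numbers pair the mice. Deviations of same-numbered mice correlated at -0.33 to 0.32 and only 4 of 12 pairs were above 0.1, which shows no pairing but cannot exclude one. With the replicate block 0 of the 9 enzymes were called at either dose. With each library left out, Haao at 10 mg ranged from 0.035 to 0.41. Counts were lowest for Kynu, Afmid, Naprt and Nmnat1, while the widest standard error was that of Haao.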
